A study of Homo sapiens with 6 samples.

Results

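The FOS and JUN families encode the subunits of AP-1, a dimeric transcription factor. The 7 subunit genes FOS, FOSB, FOSL1, FOSL2, JUN, JUNB and JUND were taken by gene name from a table of 14538 genes, and all 7 were listed. The table is the authors' own comparison of 3 libraries of HEK293T cells given 100 µM auxin for 48 h with 3 libraries of the same cells without auxin. HEK293T is a human embryonic kidney line. In both groups the cells, called INTS8-AID, carried a homozygous miniAID tag, an auxin-inducible degron that directs destruction of the tagged protein when the plant hormone auxin is present. INTS8 belongs to Integrator, which cuts RNA as RNA polymerase II makes it and so terminates transcription. The groups thus shared the tag and differed in auxin, and the effect of auxin itself on cells that lack the tag was not analysed here. The labels state neither whether the line is 1 clone nor whether each library had its own culture. The p-values therefore reflect the spread among these libraries alone, which may be technical.

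AP-1 proteins bind DNA through a basic region and pair through a leucine zipper, together called bZIP. JUN proteins can pair with each other or with FOS proteins, whereas FOS proteins need a JUN partner to bind DNA well. FOS, FOSB, JUN and JUNB are classical immediate early genes, switched on within minutes by growth factors and stress through MAP kinases, and their mRNAs are short-lived. JUND is the subunit known for steady expression in many resting cells.

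The table gives group comparisons and no values per library, so the spread between replicates of each group could not be shown. Which group is the numerator of its fold changes is not stated. Auxin over no auxin is the conventional reading and was used; under the opposite reading each rise below is a fall. A column of log2 levels equalled the level of the numerator group per kilobase of transcript, within 0.02 on the log2 scale, in 12195 of 12195 genes at or above a mean level of 100. Levels per kilobase in the 2 groups come from that column and the fold change, and depth per library is unknown.

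Promoter sequences are shown for the 6 subunits matched by symbol in the RefSeq table, FOSL1 being the other member. The subunits differ in the motifs near their start sites, and any link of these to the size of the rise was not tested. Each runs 5′ to 3′ from 210 bases before to 15 bases after the RefSeq start on GRCh38.p14. Capitals mark the cAMP response element core TGACG on either strand (CGTCA where it lies on the other strand), the full element TGACGTCA, the AP-1 element TGANTCA, the TATA box TATAAA and the sequence TGACATCA.
FOSB (chr19:45467786-45468010, plus strand): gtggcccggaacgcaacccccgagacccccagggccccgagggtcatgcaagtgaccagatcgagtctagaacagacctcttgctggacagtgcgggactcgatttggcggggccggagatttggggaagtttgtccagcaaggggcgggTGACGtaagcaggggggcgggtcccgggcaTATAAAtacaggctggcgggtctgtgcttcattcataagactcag
FOS (chr14:75278618-75278842, plus strand): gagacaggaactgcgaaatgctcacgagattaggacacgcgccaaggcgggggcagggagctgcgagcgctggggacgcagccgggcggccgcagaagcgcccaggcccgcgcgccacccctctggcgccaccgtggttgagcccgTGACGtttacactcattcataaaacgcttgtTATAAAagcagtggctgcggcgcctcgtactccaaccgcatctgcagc
JUNB (chr19:12791276-12791500, plus strand): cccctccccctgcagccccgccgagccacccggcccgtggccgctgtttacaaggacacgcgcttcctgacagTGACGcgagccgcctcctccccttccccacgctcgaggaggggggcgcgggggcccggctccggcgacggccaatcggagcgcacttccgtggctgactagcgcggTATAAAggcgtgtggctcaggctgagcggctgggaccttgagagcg
FOSL2 (chr2:28392648-28392872, plus strand): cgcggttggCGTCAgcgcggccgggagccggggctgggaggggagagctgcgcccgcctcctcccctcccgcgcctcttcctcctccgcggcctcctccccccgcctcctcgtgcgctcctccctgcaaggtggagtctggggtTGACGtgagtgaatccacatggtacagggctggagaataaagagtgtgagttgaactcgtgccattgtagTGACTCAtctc
JUN (chr1:58784033-58784257, minus strand): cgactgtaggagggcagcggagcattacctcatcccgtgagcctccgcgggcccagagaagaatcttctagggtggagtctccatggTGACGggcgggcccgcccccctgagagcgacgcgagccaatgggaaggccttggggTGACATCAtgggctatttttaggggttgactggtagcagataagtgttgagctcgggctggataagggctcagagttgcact
JUND (chr19:18281608-18281832, minus strand): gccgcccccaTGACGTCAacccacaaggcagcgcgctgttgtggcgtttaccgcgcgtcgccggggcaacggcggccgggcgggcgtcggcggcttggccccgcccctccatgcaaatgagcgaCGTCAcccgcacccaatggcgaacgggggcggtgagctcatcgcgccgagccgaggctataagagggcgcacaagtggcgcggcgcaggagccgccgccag

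The letters TATAAA stood 33 bases before the start of FOS, 30 before that of FOSB and 31 before that of JUNB, counted to the first base of the motif. These letters were found in 11.5% of the 35116 RefSeq promoter windows of 300 bases, searched on both strands, and were absent from the windows of FOSL2, JUN and JUND. Only exact matches were counted, so a variant such as the tataag in the JUND stretch was not. All 6 windows held TGACG, which overlaps the full element TGACGTCA and was present in 24.6% of promoter windows. Among the 10733 listed genes with a RefSeq promoter it was commoner, in 4358. TGACG lay close together in FOS, FOSB and FOSL2, at 64, 60 and 66 bases before the RefSeq start. The authors' table starts FOSL2 further upstream, at 28392802, so the distances for FOSL2 depend on the start used. JUND was the only one of the 6 with TGACGTCA, at 200 bases before the start. Of all windows 1.85% held it, and of the 10733 listed genes 415 did. JUN held TGACATCA 67 bases before its start, an element through which JUN protein is known to act on its own gene, and 2.61% of windows held it; this motif was added after the sequence was seen. TGANTCA was matched in FOSL2, 5 bases into the transcript by its RefSeq start, and in 7.71% of windows. The CArG box, the binding site of SRF, had 0 matches among the 6 windows and was in 1.29% of all windows. The known serum response element of FOS lies upstream of this window.

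At an adjusted p of 0.05, all 7 AP-1 subunit RNAs were higher per the authors' deposited table, read as auxin over no auxin. Of all listed genes 27.8% were called higher at that limit and 28.9% lower. The authors' own regulation mark, on 1189 of 14538 genes, was on every subunit except JUND. The rise was at least 2-fold for 6 of 7 subunits (7.88% of all genes), at least 4-fold for 5 of 7 (2.63%) and at least 10-fold for 2 of 7 (0.874%). The 2 were FOSB and FOS, and JUND was the member below 2-fold. The median log2 fold change of the 7 was 2.71, beside 0.00 over all genes. In bulk RNA, more cells expressing a gene and more RNA per cell cannot be told apart. The members were picked with these results known, so the counts describe them and are no independent evidence.

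Among the FOS family, FOSB rose most, although it was the least abundant subunit without auxin. Its level was 22.5 per kilobase without auxin and 1141 with auxin. That is 50.8-fold per the authors' deposited table (log2 fold change 5.67, 95% interval 5.38 to 5.96), with an adjusted p listed as 0. FOS, the founding member of the family, had 55.7 per kilobase without auxin and 907 with auxin. It was 16.3-fold higher per the authors' deposited table (log2 fold change 4.02, interval 3.82 to 4.23), also with an adjusted p listed as 0. Intervals were derived from the p-values under the assumption of a two-sided Wald test, and a p of 0 makes them upper limits of the width for these 2 genes. The FOS family mRNAs of lowest level with auxin were FOSL1 and FOSL2, which encode FRA1 and FRA2, subunits that lack the strong activation domain of FOS. FOSL1 went from 27.1 to 198 per kilobase. The rise was 7.31-fold per the authors' deposited table (log2 fold change 2.87, interval 2.53 to 3.21, adjusted p 1.37e-58). For FOSL2 the levels were 67.2 and 319 per kilobase, and the rise was 4.75-fold per the authors' deposited table (log2 fold change 2.25, interval 2.10 to 2.40, adjusted p 1.13e-191).

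The JUN family was the more abundant without auxin and rose less, apart from JUNB. JUNB, often a weaker activator than JUN, had 442 per kilobase without auxin and 2886 with auxin. The authors' deposited table gave 6.53-fold (log2 fold change 2.71, interval 2.56 to 2.86, adjusted p 7.84e-265). JUN, the main target of the JNK kinases, went from 992 to 2119 per kilobase, 2.14-fold per the authors' deposited table (log2 fold change 1.10, interval 0.93 to 1.26, adjusted p 6.36e-36). JUND had 904 and 1505 per kilobase, at 1.66-fold per the authors' deposited table (log2 fold change 0.74, interval 0.56 to 0.91, adjusted p 4.71e-15). JUND did not pass a derived Wald test against a change of 1.5-fold (adjusted p 0.725), whereas the other 6 did.

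**Figure D1:**
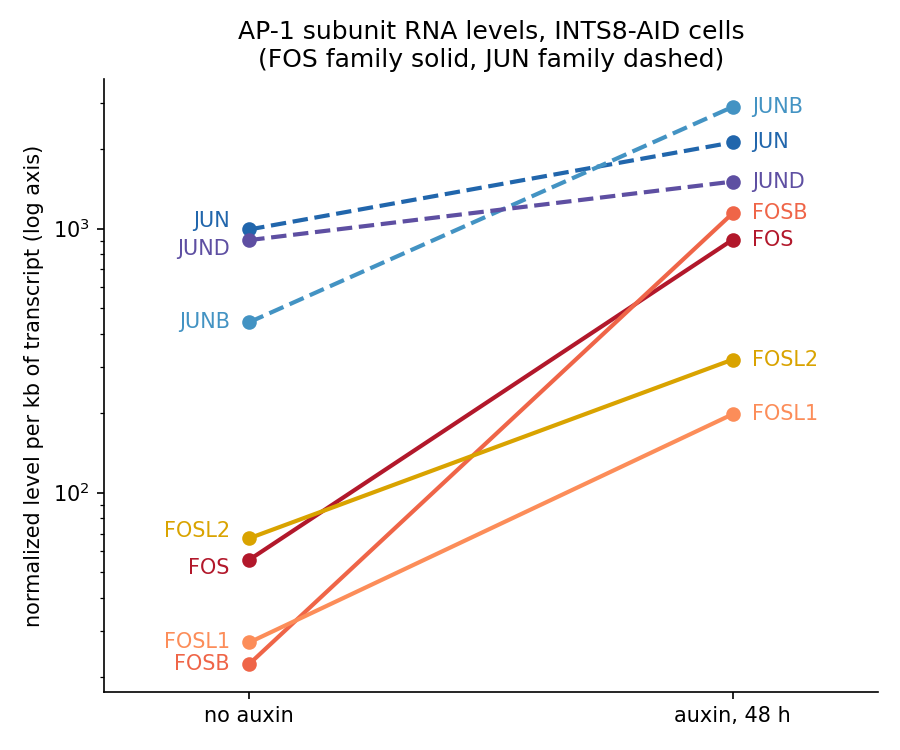
Normalized level per kilobase of transcript (log axis) of each AP-1 subunit without auxin and after 48 h of auxin, each point the group level derived from the authors' table, with no replicate spread available. FOSB goes from the lowest level of the 7, 22.5, to 1141, and JUNB from 442 to the highest, 2886.

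In order of log2 fold change the subunits were FOSB, FOS, FOSL1, JUNB, FOSL2, JUN and JUND. FOSL1 and JUNB were the only neighbours in that order whose derived intervals overlapped, at a difference of 0.16. The neighbours FOSB and FOS differed by 1.64 on the log2 scale, FOS and FOSL1 by 1.15, JUNB and FOSL2 by 0.46, FOSL2 and JUN by 1.15, and JUN and JUND by 0.36. These are comparisons of intervals and no test of the differences was made, because the covariance between genes in the same libraries is not given.

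The order of levels differed between the groups, and the orders and ranks would change places under the opposite reading of the fold changes. Without auxin it was JUN, JUND, JUNB, FOSL2, FOS, FOSL1 and FOSB, per kilobase. With auxin it was JUNB, JUN, JUND, FOSB, FOS, FOSL2 and FOSL1. FOSB thus passed FOSL1, FOS and FOSL2, and JUNB passed JUND and JUN. Among the 14462 genes with a level per kilobase, JUNB went from rank 6551 to rank 945, FOSB from 12886 to 3054 and FOS from 11825 to 3816. JUN went from rank 3485 to 1397 and JUND from 3838 to 2257. FOSL1 remained low, at rank 9538 after 12722, and FOSL2 was at 7993 after 11533.

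Summed per kilobase, the 4 FOS family RNAs went from 172 to 2565, a ratio of 14.9, and the 3 JUN family RNAs from 2338 to 6511, a ratio of 2.78. The FOS family sum was 0.0738 of the JUN family sum without auxin and 0.394 with auxin. FOS family members made up 6.87% of the 7-subunit total without auxin and 28.3% with auxin. In absolute gain per kilobase JUNB led with 2444, followed by JUN with 1127, FOSB with 1119, FOS with 851, JUND with 601, FOSL2 with 252 and FOSL1 with 171. JUN thus gained about as much as FOSB from a far higher start. The share of JUN was 39.5% of the total without and 23.4% with auxin, and that of JUND 36.0% and 16.6%, while the RNA of both rose. JUNB went from 17.6% to 31.8%, FOSB from 0.894% to 12.6% and FOS from 2.22% to 9.99%. If the numerator is the group without auxin, the values with and without auxin change places in every level, rank, share and ratio given per group: the FOS family would be 28.3% of the total without auxin and 6.87% with it, and its ratio to the JUN family 0.394 and 0.0738. These shares carry no error because no values per library are available, and they are of RNA, not of protein or dimers.

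**Figure D2:**
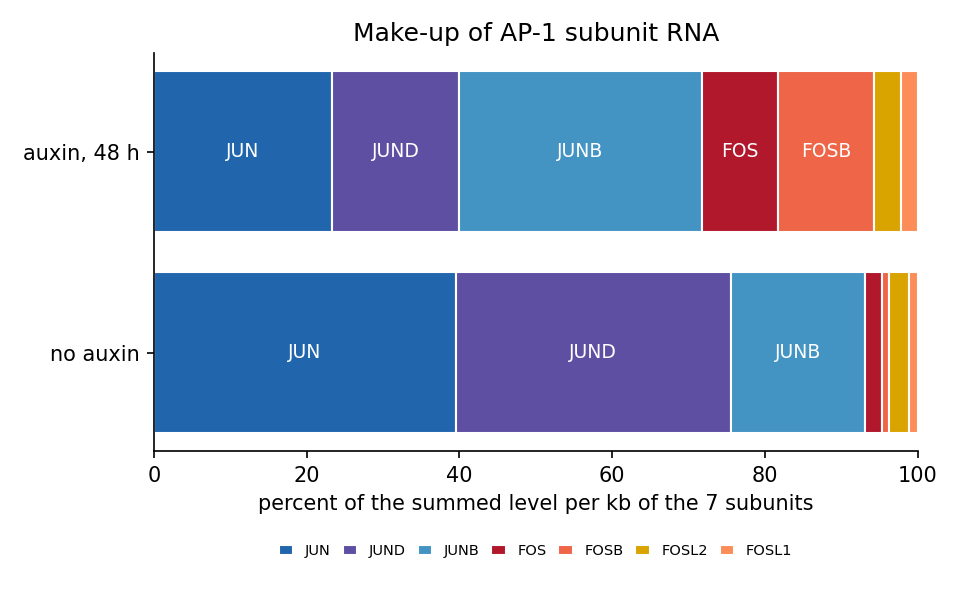
Share of each subunit in the summed level per kilobase of the 7 AP-1 subunits, in percent, without auxin (lower bar) and with auxin (upper bar). The 3 JUN family members in blue and violet hold 93.1% of the lower bar and 71.7% of the upper.

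Each subunit was set beside the 200 genes nearest to it in mean level over both groups. No gene of similar level rose more than FOSB (mean level 2198, window 2148 to 2250). For FOS, 1 of 200 had a larger log2 fold change, SNAI1 at 26.0-fold per the authors' deposited table. For FOSL2 it was also 1, METRNL at 5.37-fold, and for JUNB 2, TEX14 and LBH at 27.2 and 27.0-fold per the authors' deposited table; these 4 genes were named after their values were seen. FOSL1 had 8 of 200 above it at a lower mean level of 195, where large folds were more common: 24 of its 200 neighbours in level rose at least 2-fold, against 7 to 12 for the other members. JUN, the most abundant at a mean level of 5072, had 7 of 200 above it, and JUND had 11. The median log2 fold change of the windows ran from -0.06 to 0.04, and 23.0% to 31.5% of their genes were called higher. In these windows the subunits thus stood at the upper end, JUND least so.

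**Figure D3:**
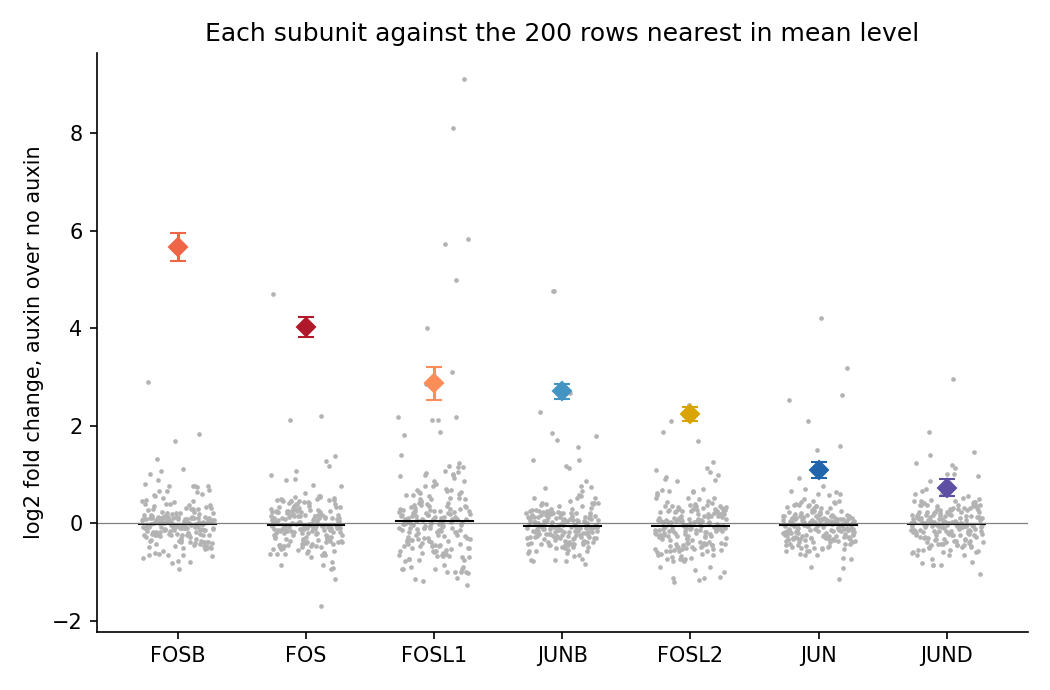
Log2 fold change of each AP-1 subunit (diamond, with its derived 95% interval) and of the 200 genes nearest in mean level (grey points, spread sideways for view, black line their median). FOSB at 5.67 lies above all of its 200, and JUND at 0.74 lies within the upper part of its own.

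**Figure D4:**
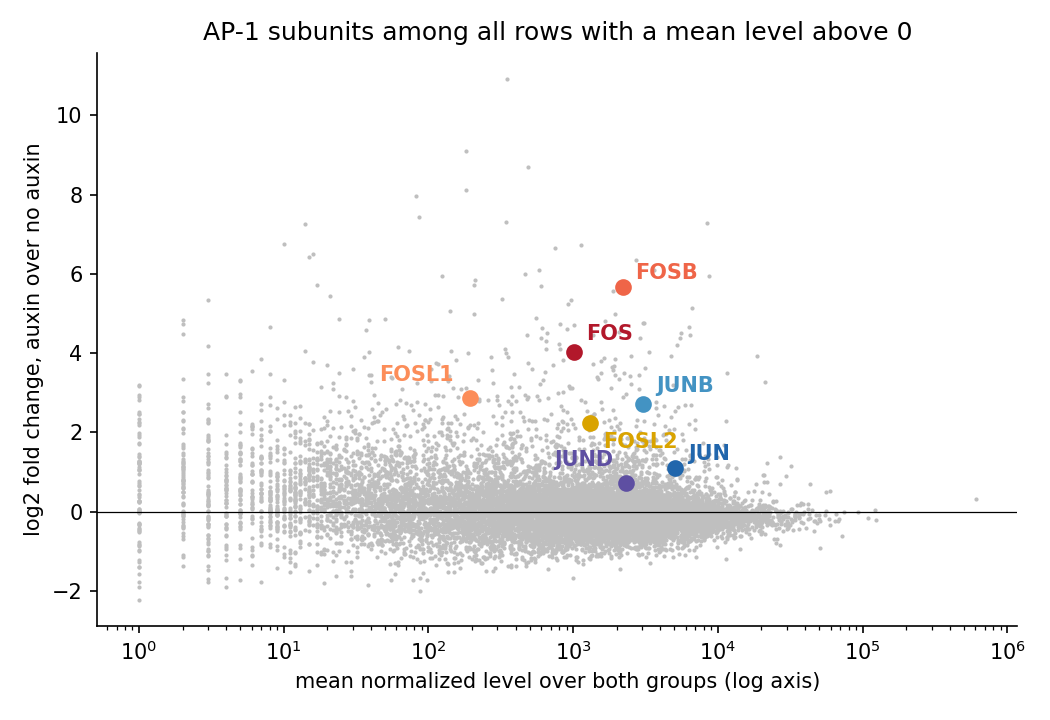
Log2 fold change against mean normalized level (log axis) for all genes with a mean level above 0 in grey and the 7 AP-1 subunits in colour. The subunits span mean levels from 195 (FOSL1) to 5072 (JUN), and all 7 lie above 0.

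The genes differ in structure and position. JUN (chr1:58780791-58784047), JUNB (chr19:12791486-12793315) and JUND (chr19:18279694-18281622) each have 1 exon in GENCODE 29. FOS (chr14:75278828-75282230), FOSL1 (chr11:65892049-65900419) and FOSL2 (chr2:28392802-28417317) have up to 4 exons and FOSB (chr19:45467995-45475179) up to 5. Coordinates follow the authors' table (hg38). The genes are short, spanning from 1830 bases for JUNB to 24516 for FOSL2. The single-exon JUN genes were among 416 single-exon genes in the table, of which 202 were higher and 30 lower, or 48.6% and 7.21%. Genes with 2 or more exons had 27.2% higher and 29.6% lower. The median log2 fold changes were 0.31 and 0.00. FOSB and FOS, the members that rose most, have several exons, and any part of exon number in the rise was not tested.

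The nearest genes moved both ways, as did all listed genes, of which 27.8% were called higher and 28.9% lower. Gaps to the nearest listed neighbour on each side of each member ran from 413 bases for CCDC85B to 513 kb for FGGY. Of these 14 neighbours 4 were higher, 6 lower and 4 did not pass, with a median log2 fold change of -0.07. PDE4C, a cAMP phosphodiesterase, near JUND was the only one higher by 2-fold or more, 2.05-fold at a mean level of 46, above the 1.66-fold of JUND itself, per the authors' deposited table. JDP2, a bZIP repressor of AP-1 whose gene follows FOS on chromosome 14 after 145 kb, was at 0.638-fold (adjusted p 9.97e-04) per the authors' deposited table. CCDC85B, which ends 413 bases from the end of FOSL1 on the opposite strand, was at 1.38-fold (adjusted p 1.09e-03) per the authors' deposited table. The neighbours of JUNB, HOOK2 and the peroxiredoxin gene PRDX2, were at 1.31 and 1.17-fold per the authors' deposited table, and both passed. ERCC1, a DNA repair gene beside FOSB, was at 0.838-fold per the authors' deposited table and RTN2 on its other side at 1.12-fold, which did not pass (adjusted p 0.177). BABAM2, 53.9 kb from FOSL2, was at 0.735-fold per the authors' deposited table. MYSM1 and FGGY, 80.7 and 513 kb from JUN, were at 0.884 and 0.792-fold per the authors' deposited table. These 3 were lower. LSM4, a spliceosomal LSm protein gene beside JUND, was also lower, at 0.858-fold per the authors' deposited table. The neighbours that did not pass included C11orf68 at 0.984, PPP1CB at 0.927 and the lncRNA AF111167.1 at 1.02-fold per the authors' deposited table. The mean level of AF111167.1 was only 1, so its fold change says little. GENCODE 29 has transcripts of ERCC1 and HOOK2 that overlap FOSB and JUNB on the other strand, and FLJ31356 and AC104695.3 overlap FOSL2. The library kit was directional, but the sources used here do not give the strand setting of the counting.

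Among 14 listed bZIP partners of AP-1, 7 rose and 4 fell, with a median log2 fold change of 0.19. The 4 that fell are close to the 28.9% lower of all genes, of which 27.8% were higher. The small MAF protein gene MAFF was 11.1-fold higher, the large MAF gene MAFA 7.56-fold, and the stress-induced ATF3 6.82-fold per the authors' deposited table. Each of these folds lay between those of FOSL2 and FOS. BATF2, MAF and MAFG rose as well, at 2.07, 1.35 and 1.26-fold per the authors' deposited table. The fallers were BATF3 at 0.526, JDP2 at 0.638, MAFK at 0.732 and ATF4 at 0.840-fold per the authors' deposited table. ATF2 and ATF7, known partners of JUN, were at 0.945 and 1.03-fold per the authors' deposited table and did not pass, nor did NRL at 0.792-fold.

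Of 22 listed kinases of the MAP kinase cascades that act on AP-1, 3 rose and 12 fell, with a median log2 fold change of -0.17. Across all listed genes 27.8% were called higher and 28.9% lower. Only 1 kinase fell at least 2-fold, and 0 rose that much. Among the kinases that rose, MAP2K3 was at 1.54-fold and MAP2K1 at 1.28-fold per the authors' deposited table. The largest falls were of MAP2K6, an activator of p38, at 0.457, RPS6KA2 at 0.594, RPS6KA4 (MSK2) at 0.610 and MAPK12 (p38 gamma) at 0.638-fold per the authors' deposited table. The JNK genes MAPK8 and MAPK9 were at 1.13 and 0.925-fold per the authors' deposited table and did not pass. Kinase activity is set largely by phosphorylation, which RNA levels do not measure.

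Among 18 factors that bind the FOS and JUN promoters or their activators, 6 rose and 5 fell, with a median log2 fold change of 0.03. SRF, which binds the serum response element, was at 1.16-fold and its cofactor MRTFA at 1.27-fold per the authors' deposited table. MEF2D, ATF1, CREM and EP300 rose too, at 1.47, 1.37, 1.35 and 1.15-fold per the authors' deposited table. CRTC1, CREB1, MRTFB, ELK1 and CRTC3 fell, at 0.701, 0.800, 0.808, 0.854 and 0.888-fold per the authors' deposited table. All 18 stayed within 2-fold of no change, and the counts of 6 and 5 are close to the 27.8% higher and 28.9% lower of all genes.

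Among 18 genes of FOS and JUN mRNA and protein decay, 6 rose and 5 fell, also close to the 27.8% and 28.9% of all genes, with a median log2 fold change of -0.10. ZFP36 (tristetraprolin), which binds AU-rich elements of mRNAs such as that of FOS and speeds their decay, was 3.03-fold higher per the authors' deposited table. TRIB1, which works with the ubiquitin ligase COP1, was 2.24-fold higher, ZFP36L1 1.44-fold and FBXW7, a ubiquitin ligase subunit for JUN, 1.36-fold per the authors' deposited table. DET1 and CNOT8 rose at 1.18 and 1.14-fold per the authors' deposited table. The fallers included KHSRP, CNOT6, ELAVL1 (HuR) and HNRNPD (AUF1), at 0.792, 0.842, 0.855 and 0.865-fold per the authors' deposited table. The list does not sort its genes by whether they speed or slow decay.

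Of 34 genes on a list of known AP-1 targets, 20 were listed and 14 were not analysed here. Of the 20, 11 rose, 5 fell and 4 did not pass, with a median log2 fold change of 0.32. The 5 that fell are close to the 28.9% lower of all genes, of which 27.8% were higher. Of the 11 that rose, 4 did so at least 2-fold. HBEGF, a growth factor of the EGF family, was 13.3-fold higher per the authors' deposited table. PTHLH, the gene of parathyroid hormone-like hormone, had a log2 fold change of 1.43, and the protease gene PLAU (urokinase) was 2.42-fold and VEGFA, which drives blood vessel growth, 2.03-fold higher per the authors' deposited table. The mean levels of PTHLH and PLAU were only 47 and 74. CCND1 (cyclin D1) rose 1.70-fold and HMOX1 (heme oxygenase 1) 1.58-fold per the authors' deposited table, beside EZR, GLUL, TIMP1, PLAUR and KRT18. EGFR, LIF, DNMT1, GJA1 and TGFB1 fell, at 0.533, 0.592, 0.629, 0.804 and 0.836-fold per the authors' deposited table. Many of these genes have other regulators, and binding of AP-1 was not measured.

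**Figure D5:**
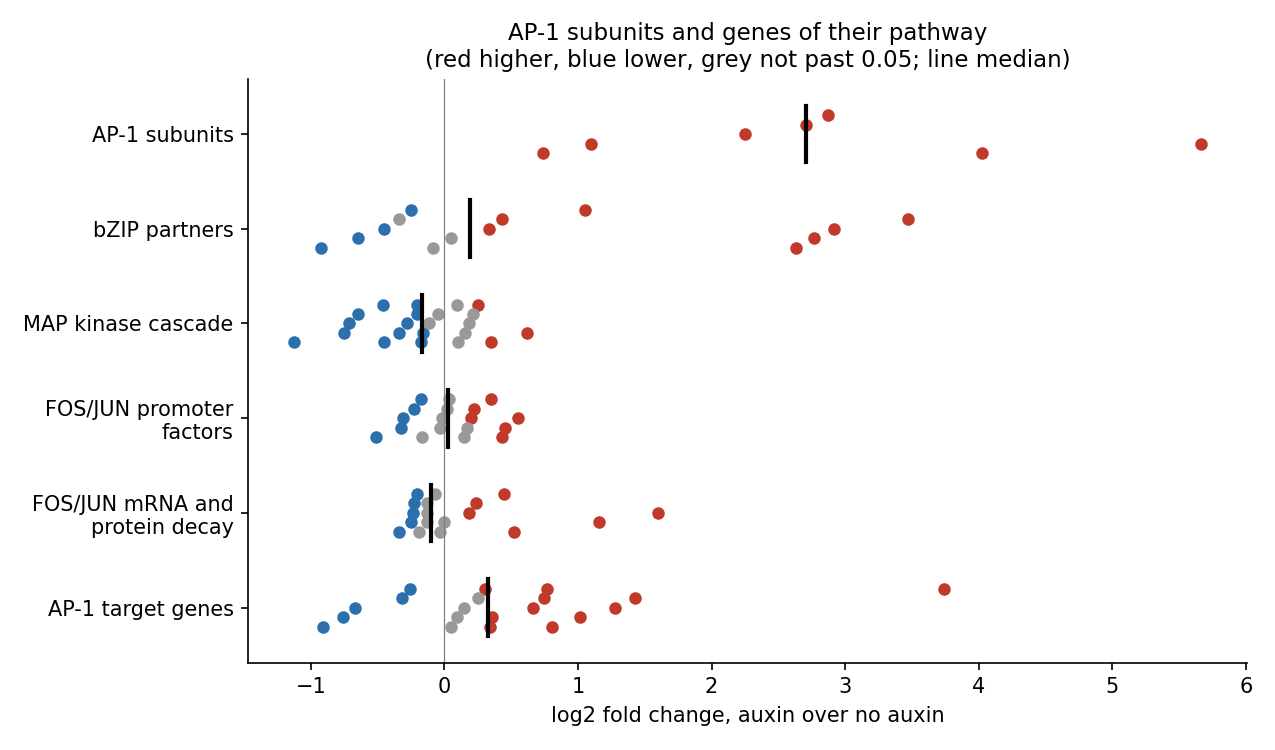
Log2 fold change of the 7 AP-1 subunits and of the listed genes of their pathway, 1 point per gene, coloured by the authors' adjusted p at 0.05, with the median as a black line. The subunits have a median of 2.71 and the other lists medians from -0.17 to 0.32.

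Markers of other cell types were read in the same comparison, in which 27.8% of all genes were called higher and 28.9% lower. Of the HEK293 lineage list 5 of 5 were listed, 1 higher and 2 lower, and their summed level per kilobase was 6291 without and 6460 with auxin. PAX2 and CDH2 were lower, at 0.696 and 0.857-fold, and LHX1 was at 5.39-fold per the authors' deposited table. The mean level of LHX1 was only 46, and VIM and SALL1 did not pass. Of 17 neuronal markers 10 were listed, 8 higher and 1 lower (MAPT), and their summed level per kilobase went from 2430 to 12180. Most of that gain was in TUBB3, which alone went from 329 to 7231 per kilobase. NEFH was 107-fold higher per the authors' deposited table. Of 15 blood cell markers 4 were listed, with CD68 and HBA1 higher, a summed level of 154 without and 915 with auxin, and the pan-leukocyte marker PTPRC not analysed here. The part of these genes in the rise of AP-1 subunits was not tested.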

How the data were processed

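RNA came from INTS8-AID HEK293T cells, 3 libraries with and 3 without auxin. Ribosomal RNA was removed before library preparation with a directional kit, per the labels' protocols. STAR 2.7.3a and DESeq2 with the builds hg38 and dm6 are named, per the submitters' processing notes, with no role given. The authors deposited a table of their comparison. Per the file headers it holds a mean level, used as a score because the authors rounded it, p-values raw and adjusted, and the fold change both as a ratio and as log2. A deposited log2 level column was matched to the numerator group, as the report states.

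No model could be refitted, so the authors' adjusted p at 0.05 was used. Levels per kilobase were taken from that column for the numerator group and divided by the fold change for the other group. Dividing each log2 fold change by the normal deviate that its p implies gave a standard error. Windows were the 200 genes nearest in log10 mean level. The members and lists were chosen with earlier results of these data known. Named genes were the members, their neighbours and, per list, the 4 largest changes past 0.05 with a mean level of at least 20; others are named for counts of 5 or fewer or as pathway members after their values were seen. Some genes that the rule takes are not reported here. Protein sequences were not used here. Alternatives included centring, fold limits (1.5 and 2), a stricter adjusted p (0.01), a Wald test against 1.5-fold, other adjustments, a mean level of at least 100 and other windows. The computations were tested on simulated data. Software was matplotlib 3.10.9, pandas 2.3.3, scipy 1.17.1, numpy 2.4.6 and Python 3.11.15.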

Additional observations from a re-analysis of the deposited data

How the results depend on the processing

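All 7 subunits stayed higher and 0 lower at an adjusted p of 0.01, with a fold limit of 1.5, with centring (which subtracts a median of -0.03), with adjustment over every gene or over protein-coding genes alone, and at mean levels from 100 up. JUND was lost, leaving 6, with a fold limit of 2 and in the Wald test against 1.5-fold. The share of genes of similar level above FOSL1 was 4% of 200 and 1% of the 100 nearest; for the other members it stayed within its counting interval in windows of 100 and 500 and among protein-coding genes. Centring took the higher kinases from 3 to 5 and the lower ones from 12 to 8, and an adjusted p of 0.01 also left 8 lower. With a fold limit of 2 the counts higher and lower fell to 0 and 1 for kinases, 0 and 0 for promoter factors, 2 and 0 for decay factors and 4 and 0 for AP-1 targets, and the lower bZIP partners to 0. Of single-exon genes, 56.0% of protein-coding ones, 64.2% of those at or above a mean level of 100 and 63.9% under both limits (a setting chosen after seeing the data) were higher; the cause was not tested. No paired analysis was possible because the table holds no values per library, and for the same reason no replicate could be left out. Depth per library is unknown, so no detection limit is given.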

Other observations

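Gene length went with the direction of change among genes at or above a mean level of 100, in classes chosen after the values were seen. Genes spanning over 2 and up to 5 kb, the class of FOS and JUN, had 39.8% higher and 23.4% lower of 1067. For over 5 and up to 10 kb, the class of FOSB and FOSL1, it was 33.5% and 27.9% of 1494, and for over 10 and up to 25 kb, the class of FOSL2, 797 were higher and 907 lower of 2850. Genes of over 25 and up to 100 kb had 25.5% higher and 36.0% lower of 4415. Within the class of over 2 and up to 5 kb, 91 of 117 single-exon genes were higher (77.8%), 36 of them at least 2-fold, against 334 of 950 genes with more exons (35.2%), 112 of them at least 2-fold. Up to 2 kb, the class of JUNB and JUND, 58 of 110 single-exon genes were higher (52.7%), against 88 of 230 others (38.3%). These counts are descriptions with no test.

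The promoter motifs searched in the subunits were also counted over all listed genes with a RefSeq promoter, of which 6.87% were higher at least 2-fold. With TATAAA, present in FOS, FOSB and JUNB, it was 108 of 889 genes (12.1%), with the CArG box, which had 0 matches in the 6 subunit windows, 18 of 170 (10.6%), and with TGACATCA 24 of 231 (10.4%). With TGACG, the motif found in all 6 subunit windows, it was 272 of 4358 (6.24%), and with the full TGACGTCA 27 of 415 (6.51%). TGANTCA gave 55 of 692 (7.95%), CCAAT 371 of 4663 (7.96%) and the GC box GGGCGG 586 of 8455 (6.93%). These shares include the subunits that hold each motif, and were computed after the values were seen, without a test.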
